A study of Mus musculus with 22 samples.

Results

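The cytosolic heat shock genes followed here are 10 genes that encode chaperones of the cytosol, their helpers and the factor that switches them on: Hspa1a, Hspa1b, Hspa8, Hsph1, Dnajb1, Hspb1, Hspb8, Hsp90aa1, Bag3 and Hsf1. They were chosen by name, and each was read through the array probes whose accession belongs to that gene. Of the 10, 9 were measured, among 20018 named genes on the array, and Hspa1b had no probe. The Hspa1a probe may also read the near-identical transcript of Hspa1b, which was not checked, so its values may hold both. The measured members had 12 probes, 3 of them for Hspa8 and 2 for Hsph1, and each gene is given by its brightest probe. FE1 is an epithelial cell line from the lung of the MutaMouse, and its RNA was compared on 22 arrays after 24 h with or without Mitsui7, a multi-walled carbon nanotube. The groups were vehicle Control (5 arrays), Low (12.5 µg/ml, 6 arrays), Medium (25 µg/ml, 5 arrays) and High (100 µg/ml, 6 arrays). All 4 groups were the same line in DMEM/F-12 with 2% serum and epidermal growth factor, so they are 1 line and not separate animals, and the exposures came from separate experiments that the labels do not tie to arrays. Sample RNA was labelled with Cy5 and a mouse reference RNA pool with Cy3, and every level below is a log2 ratio of sample to reference. A level therefore compares FE1 cells with the pool, and levels of different genes are not compared with each other.

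Cells answer unfolded protein in the cytosol with the heat shock response. Heat shock factor 1, encoded by Hsf1, is held inactive by chaperones, and when those are drawn to damaged protein it forms trimers, binds repeated elements in the promoters of its targets and raises their transcription. Hspa1a and Hspa1b, the inducible Hsp70 genes, and Dnajb1, Hsph1, Hspb1 and Bag3 are textbook targets, while Hspa8 and Hsf1 are expressed constantly in most cells.

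Promoter windows were available in RefSeq (build GRCm38.p6) for 7 of the 10 members, from 250 bases before to 50 bases after an annotated start. The heat shock element was searched as 2 facing units, GAANNTTC or TTCNNGAA, each of which reads the same on both strands, and as 3 units, GAANNTTCNNGAA or TTCNNGAANNTTC, which contain the former. At least 1 match to 2 units was found for 6 of the 7 members, in 7 of their 9 windows, and among all 32851 windows of this length 15.1% held one. Hsph1 was the 1 member with a match to 3 units, which 0.603% of all windows held. Neither window of Dnajb1 held these letters. Such a match describes the letters of the window and was not measured as a binding site. The 4 windows below show the Hsp70 pair and the members with more than 1 match, in lower case with the matches in capitals. Hspa1a (chr17:34972107-34972406, minus strand) and Hspa1b (chr17:34959189-34959488, minus strand) differ at 4 of 300 bases, and the match begins 104 bases before the start in both. Hspb1 (chr5:135887669-135887968, plus strand) holds 2 matches and Hsph1 (chr5:149636287-149636586, minus strand) holds 3, of which 2 overlap to form the 3-unit match.
Hspa1a: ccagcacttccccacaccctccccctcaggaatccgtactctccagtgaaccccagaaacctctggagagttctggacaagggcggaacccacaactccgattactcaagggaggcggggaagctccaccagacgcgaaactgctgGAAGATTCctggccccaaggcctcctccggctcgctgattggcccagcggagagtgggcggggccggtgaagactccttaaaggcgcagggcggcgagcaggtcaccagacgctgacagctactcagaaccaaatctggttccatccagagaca
Hspa1b: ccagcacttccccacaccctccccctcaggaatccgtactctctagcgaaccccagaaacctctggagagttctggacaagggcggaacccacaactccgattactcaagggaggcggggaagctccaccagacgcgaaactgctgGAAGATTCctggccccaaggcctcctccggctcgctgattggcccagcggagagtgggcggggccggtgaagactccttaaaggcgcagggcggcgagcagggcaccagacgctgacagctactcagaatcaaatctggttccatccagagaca
Hspb1: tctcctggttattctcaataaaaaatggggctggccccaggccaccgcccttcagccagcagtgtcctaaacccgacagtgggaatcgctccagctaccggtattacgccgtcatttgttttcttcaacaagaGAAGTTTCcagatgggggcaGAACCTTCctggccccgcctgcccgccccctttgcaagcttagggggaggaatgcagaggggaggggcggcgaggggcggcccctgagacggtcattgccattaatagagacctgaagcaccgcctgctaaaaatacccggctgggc
Hsph1: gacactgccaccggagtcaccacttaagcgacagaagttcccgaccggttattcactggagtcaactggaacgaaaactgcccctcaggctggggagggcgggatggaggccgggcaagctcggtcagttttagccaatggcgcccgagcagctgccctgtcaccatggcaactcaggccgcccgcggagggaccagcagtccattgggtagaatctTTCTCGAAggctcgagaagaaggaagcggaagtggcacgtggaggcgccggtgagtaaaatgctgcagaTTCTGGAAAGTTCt

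The arrays set limits on what can be read for these genes. A probe was called detected when its Cy5 signal passed the trimmed mean plus 3 trimmed SD of the negative control spots of its array, and between 23688 and 39139 probes passed on an array. The members other than Hspa1a were detected on 22 of 22 arrays, and no array was saturated for any of their brightest probes. Hspa1a was detected on 17 of 22 arrays and well above background by the scanner's own mark on 9, with a Cy5 signal from 69.5 to 109, so its ratio is compressed towards that of the background and bounds no change in the gene. Bag3 was measured on 18 arrays, since its spots on all 4 arrays of slide 2 were marked as outliers and left out. The arrays lay on 5 slides, with 2 arrays of every group on slide 1. Slides 2, 3 and 4 each held 1 of every group, and slide 5 held 1 Low and 1 High array. On slide 4, Control 5 and Low 6 had 23688 and 25884 detected probes, against 35328 on Medium 5 and 31658 on High 6. After slide means were removed, 16 of 22 arrays resembled their own group most, over 19430 probes, and Low 1, Low 2 and Medium 2 were among the 6 that did not. Low 1 was nearest to Medium (r = 0.53, own group -0.38) and Medium 2 to Low (0.15, own group -0.35). Low 2 was the 1 exposed array nearest to Control (0.20, own group -0.01). Labels were kept as given, and leaving out both Low 1 and Medium 2 is among the settings below. Of the lung epithelial markers, Cdh1 was detected on 0 and Epcam on 10 of 22 arrays, and Krt8, Krt18 and Krt19 were detected on at least 21 but far below the pool, at -4.35, -5.62 and -4.91 in Control. Cldn4 was detected on 16 arrays at 0.28 in Control, the club cell marker Scgb1a1 on 21 at 0.35 and the alveolar marker Sftpc on 17 at 0.43. Of the other alveolar markers listed, Sftpa1 was detected on 0 arrays and Sftpb on 3. Sftpd was detected on 16, well above background on 7, at 0.01 in Control. The mesenchymal markers Vim, Col1a1, Col3a1 and Acta2 were detected on all 22.

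None of the 9 measured members was called at any concentration. A gene was called at a limma adjusted p of at most 0.05 over all 55681 probes if it also changed by 1.5-fold or more and was detected on 4 or more arrays of a group. The share of detected named genes called was 5.18% at Low, 8.88% at Medium and 11.8% at High, against 0 of 9 members each time. At such shares 9 genes are too few for 0 calls to set the members apart, and Hspa1a among them bounds no change. Before adjustment, 0, 1 and 2 members had p under 0.05, where 27.4%, 32.7% and 36% of the named genes did. Without the fold threshold, limma's adjusted p was at most 0.05 for 0 of 9 members at each concentration and for 9.6%, 14.7% and 20.6% of the named genes. No member had exposed arrays that all lay outside the range of the controls once slide means were removed, as 11.6%, 16.4% and 20.5% of the named genes had.

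Estimated changes of the members lay between -0.37 and 0.22 on the log2 scale at Low, between -0.30 and 0.16 at Medium, and between -0.41 and 0.26 at High, with medians of 0.01, -0.03 and -8.2e-05. The median over all detected named genes was 0.00 at Low, 0.00 at Medium and 0.01 at High. The 95% interval of the change lay within 1.5-fold either way for 6 of the 8 members other than Hspa1a at Low, 8 at Medium and 5 at High, where 68.4%, 62.4% and 61.5% of the named genes had such an interval. All 24 intervals of these 8 members lay within 2-fold, as did those of 93.3%, 90.7% and 89.1% of the named genes. These ranges and intervals are those of the brightest probes and take the arrays as independent samples. Another Hspa8 probe, measured on 19 arrays, gave -0.58 at Low (limma adjusted p = 0.445), outside the range above. Intervals of such further probes are not given here. In the plot of changes, the members' open circles sit inside the shaded band and all those of Sqstm1, Lonp1 and Hspb2 lie outside it.

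**Figure D1:**
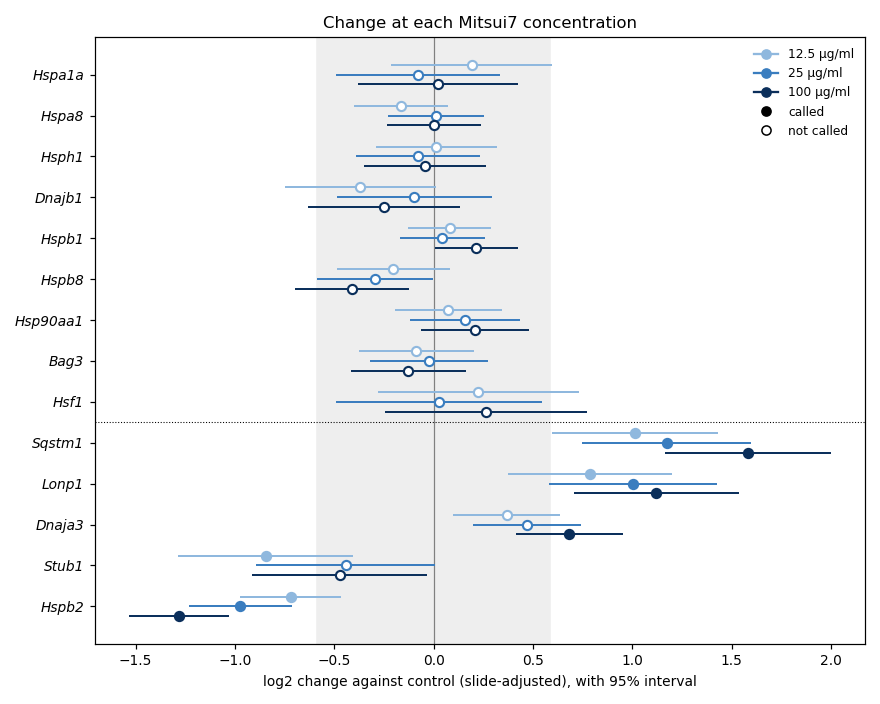
Slide-adjusted log2 change against Control (x axis) for the 9 measured heat shock genes, above the dotted line, and for 5 other genes of protein quality control that were called at 1 or more concentrations, below it. Circles are estimates and lines 95% intervals at 12.5, 25 and 100 µg/ml, filled circles were called, and the grey band spans a 1.5-fold change either way. No member has a filled circle, and Hspb8 at 100 µg/ml (-0.41) lies farthest from 0 among the members.

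Among the inducible chaperones, no Hsp70 gene passed the test. Hspa1a had slide-adjusted changes of 0.19, -0.08 and 0.02 at Low, Medium and High, on the near-background probe described above. Its log2 ratio ran from -1.75 to -0.18 in Control and from -1.13 to -0.25 at High, so the groups overlapped fully. Hsph1, an Hsp110 protein that recharges Hsp70 with nucleotide, had changes of 0.01, -0.08 and -0.04 (SE 0.14, 0.15 and 0.14). Its second probe gave -0.18, -0.01 and -0.12, and neither probe passed the test.

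Hspa8, the constitutive Hsp70 of the cytosol, read 0.99, 0.98, 0.67, 0.46 and 0.06 on the 5 Control arrays. At Medium it read 0.86, 0.87, 0.50, 0.51 and 0.47, and at High the lowest, median and highest of 6 arrays were 0.34, 0.52 and 0.93. At Low the same 3 values were -0.18, 0.38 and 1.05. The 4 groups overlapped, and the spread inside Control was wider than any difference between group means. Changes after slide adjustment were -0.17, 0.01 and -8.2e-05 (limma adjusted p 0.578, 0.987 and 1.00). The other Hspa8 probes gave -0.37, -0.22 and -0.28, and -0.58, 0.01 and -0.07, with no adjusted p under 0.445.

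Dnajb1, the Hsp40 that hands clients to Hsp70 and a sensitive target of the heat shock factor, had the lowest p of the members at Low. Control arrays read 1.06, 0.58, 0.46, 0.01 and -0.35. Low arrays had a lowest, median and highest of -1.12, -0.08 and 0.92, Medium arrays read 0.90, 0.39, 0.05, -0.09 and 0.04, and High arrays ran from -0.65 through 0.05 to 0.55. The groups overlapped, with the lowest reading on Low 6. With slide means removed, Dnajb1 read below every Control array on 4 of 6 Low, 2 of 5 Medium and 4 of 6 High arrays. Its change was -0.37 ± 0.18 (SE; 6 Low and 5 Control arrays; limma adjusted p = 0.375) at Low, -0.10 at Medium and -0.25 at High. At Low the difference was below 0 within each of the 4 slides that held both groups, from -0.78 to -0.12. It was above 0 on 1 of 4 slides at Medium (-0.41 to 0.38) and on 1 of 4 at High (-0.43 to 0.30).

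The changes of both small heat shock proteins had opposite signs, and neither passed the test. Hspb1 encodes Hsp27, which holds unfolding proteins and actin filaments. It read 0.48, 0.25, -0.31, -0.44 and -0.37 in Control and had a lowest, median and highest of -0.22, 0.14 and 0.56 at High. These ranges overlap, though with slide means removed 4 of 6 High arrays lay above every Control array. The slide-adjusted change at High was 0.21 ± 0.10 (SE; unadjusted p = 0.0413, limma adjusted p = 0.250). The difference at High was above 0 within 4 of 4 slides, from 0.02 to 0.53. At Low it was above 0 within 4 of 4 (0.01 to 0.25), and at Medium within 2 of 4 (-0.09 to 0.42).

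Hspb8, a small heat shock protein that works with Bag3 in the removal of misfolded proteins, was the member with the lowest p. Control arrays read 0.59, 1.08, 1.03, 0.75 and 0.96. The lowest, median and highest were 0.51, 0.68 and 0.83 at Low and 0.18, 0.49 and 0.72 at High, and Medium arrays read 0.11, 0.90, 0.81, 0.77 and 0.34. With slide means removed, 5 of 6 High arrays lay below every Control array, as did 3 of 6 Low and 3 of 5 Medium arrays. Changes were -0.20 ± 0.13, -0.30 ± 0.14 and -0.41 ± 0.13 (SE), with limma adjusted p of 0.570, 0.304 and 0.0694. The 95% interval at High ran from -0.69 to -0.13. Within slides the difference at High was below 0 on 4 of 4, from -0.50 to -0.31, and at Low on 4 of 4, from -0.25 to -0.15. At Medium it was above 0 on 1 of 4, from -0.63 to 0.02. The share of all genes with such agreement between slides is not given here. When arrays were blocked by replicate number and not by slide, limma's adjusted p at High was 0.0035 for the same change of -0.41, still short of 1.5-fold and so not a call. Over the 42 other settings tried, that change stayed between -0.48 and -0.34, and limma's adjusted p ranged from 0.0035 to 0.903. The mean log2 ratio of the 4 mesenchymal markers ran from 0.77 to 1.34 over Control arrays and from -0.14 to 0.27 over High arrays. The list was split, with changes at High of -1.34 for Col1a1 and -1.70 for Col3a1, both called, -0.70 for Acta2 and 0.14 for Vim, neither called, and its part in the Hspb8 values was not tested. In bulk RNA, fewer cells of a kind and less RNA per cell cannot be told apart.

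Bag3, which couples Hsp70 to the small heat shock proteins, had changes within their error. It read -0.04, 0.22, 0.31 and -0.32 on the 4 Control arrays measured and 0.18, 0.05, 0.14 and -0.29 on the 4 Medium arrays. Its 5 Low arrays ranged from -0.75 to 0.24 and its 5 High arrays from -0.32 to 0.14. Changes were -0.09, -0.03 and -0.13, with limma adjusted p of at least 0.755. Whether the changes of Hspb8 and Bag3 differ was not tested.

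Hsp90aa1, the stress-inducible cytosolic Hsp90, read 0.81, 0.51, 0.60, 0.67 and 0.32 in Control, with a lowest, median and highest of 0.40, 0.73 and 1.11 at High. Its changes were 0.07, 0.16 and 0.21 (SE 0.13 each), with the 2 highest High arrays on slides 3 and 4. Limma's adjusted p was 0.874, 0.675 and 0.461. Hsf1 had the widest error among the members, with changes of 0.22, 0.03 and 0.26 (SE 0.24, 0.25 and 0.24). Slide 4 held both extremes, with -0.71 on Control 5 and 1.05 on Low 6. The Hsf1 Cy5 signal on these 2 arrays was 328 and 797, against 1509.5 on Medium 5 and 1192 on High 6. Without slide 4 its change at Low was -0.14 and at Medium -0.24. Without Control 5 alone, its changes at Low, Medium and High were -0.05, -0.24 and -0.01. The change was below 0 in 3 of 42 other settings at Low, 9 at Medium and 1 at High, so no direction is settled. Hsf1 is regulated mainly through its protein, which these arrays do not measure.

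**Figure D2:**
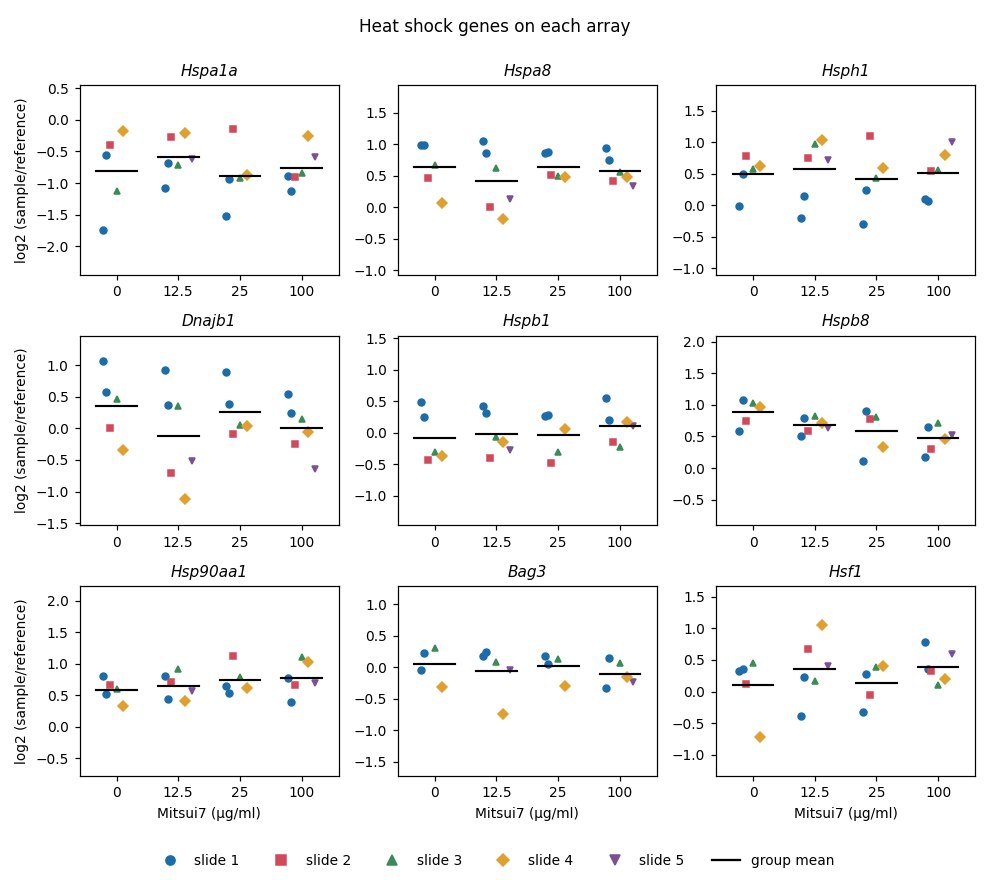
Log2 ratio of sample to reference (y axis) on each array for the 9 measured heat shock genes, by Mitsui7 concentration in µg/ml (x axis). Symbols and colours give the slide, horizontal lines the group means, every panel spans at least 3 log2 units, and Bag3 has no values on slide 2. The concentration groups overlap in every panel, and for Hspa8, Dnajb1 and Hspb1 the slide 1 arrays stand at the top of their groups.

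Between concentrations, no member was called either. Medium against Low and High against Medium gave 0 of 9 members at a background of 0%, and High against Low gave 0 of 9 where 0.435% of the named genes were called. Unadjusted p was under 0.05 for 0 of 9 members in each of these 3 comparisons. Differences lay between -0.27 and 0.27 for Medium against Low, between -0.21 and 0.17 for High against Low, and between -0.15 and 0.23 for High against Medium. Hspb8 at High against Low was -0.21 ± 0.13 (SE; limma adjusted p = 0.722).

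Most members varied far more between slides than between concentrations. The slide accounted for 79.4% of the variance of Hspb1 over the arrays, 76.6% of that of Hspa8, 72.9% for Hsph1, 71.1% for Dnajb1, 59.5% for Bag3 and 50.2% for Hspa1a. The concentration group accounted for between 2.0% and 12.2% in these 6 genes. Over 12255 detected named genes measured on every array, the median shares were 34.5% for slide and 15.4% for group. Hspb8, with 34.3% in the group and 13.6% in the slide, and Hsf1, with 11.3% and 4.7%, were the members in which the group share was the larger. On slide 1, the mean of 8 arrays was 0.91 ± 0.09 (SD) for Hspa8, above the means of 0.21 to 0.59 on the other slides. Hspb1 read 0.35 ± 0.12 (SD) there against -0.36 to -0.07 elsewhere, and Hsph1 went the other way, with 0.06 ± 0.25 (SD) on slide 1 and 0.63 to 0.85 elsewhere. What separates the slides, whether hybridisation, scanning or the day of exposure, cannot be told apart from these labels.

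**Figure D3:**
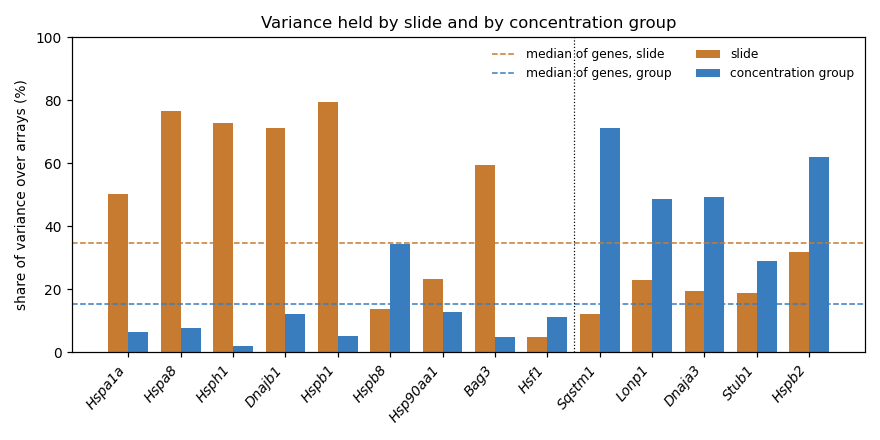
Share of the variance over arrays (y axis, percent) that lies between slides (orange) and between concentration groups (blue), each taken alone, for the 9 heat shock genes left of the dotted line and 5 other genes right of it. Dashed lines mark the medians over detected named genes, 34.5% for slide and 15.4% for group. The slide bar is above its median for 6 members, from 50.2% to 79.4%, and the group bar is above its own for Hspb8 alone among the members.

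With slide and group means removed, pairs of members were correlated over the arrays. Of 36 pairs of members, 9 had a Benjamini-Hochberg adjusted permutation p of at most 0.05 for Pearson's r, and 8 of the 9 were positive. All 9 lay among the 28 pairs measured on every array, with r of at least 0.57 in size, so that 32.1% of those pairs reached this size, where 13.4% of all pairs among 12255 detected named genes did. A positive r of that size was found for 8 of the 28 pairs and for 7.07% of all gene pairs. The size is the lowest among the 9 pairs that passed, so the members themselves set it. No test was made of these differences. The tightest pair was Hspa8 and Dnajb1, an Hsp70 and its partner, with r = 0.85 and Spearman's rho = 0.78 over 22 arrays (permutation p = 1e-05, the smallest that 100000 permutations can give, and 5e-05; adjusted over 36 pairs, 0.00036 and 0.0018). Leaving out the 2 arrays farthest from the median of Hspa8 gave r = 0.77. Hspa1a and Hspb8 followed with r = 0.73 and rho = 0.75 (permutation p = 0.00013 and 0.00011, adjusted 0.00234 and 0.00198), and r = 0.67 without the 2 arrays farthest from the median of Hspa1a. The Hspa1a probe reads near background, so a shared rise there is also a rise of background-level signal. The pair of Hspa1a and Hsph1 (r = 0.68) rests on the same probe, and both of these pairs count towards the 32.1%. The residuals keep 14 degrees of freedom over 22 arrays and share dye, hybridisation and normalisation, so these p-values are too small.

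Beyond the members, 73 other genes of protein folding and clearance were listed, of which 72 had a probe, and 67, 68 and 68 of them were detected at Low, Medium and High. Calls were made for 4 of 67 (5.97%), 3 of 68 (4.41%) and 4 of 68 (5.88%), which stand beside 5.18%, 8.88% and 11.8% of all detected named genes. The medians of their changes were 0.02, 0.08 and 0.06. None of the 8 subunits of the chaperonin TRiC, which folds actin and tubulin, was called, and their changes at High ran from -0.17 to 0.26. The 15 genes of Hsp90 and its co-chaperones, the 9 cytosolic J-domain proteins measured and the 7 detected genes of the Hsp70 and Hsp110 family had 0 calls as well, though limma's adjusted p alone was at most 0.05 at High for 1, 0 and 2 of them. Before adjustment, p was under 0.05 at High for 2 of the TRiC subunits and for 3, 2 and 2 genes of these other lists.

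The called genes were Sqstm1, Lonp1, Dnaja3, Hspb2 and Stub1. Sqstm1 encodes p62, the receptor that carries ubiquitinated aggregates to autophagy and a known target of NRF2. It read -0.57, -0.56, -0.18, -0.79 and 0.01 in Control and had a lowest, median and highest of 0.55, 1.08 and 1.85 at High. No exposed array overlapped the controls at any concentration once slide means were removed. Sqstm1 rose by 1.01 ± 0.20, 1.17 ± 0.20 and 1.58 ± 0.20 (SE; limma adjusted p 0.00438, 0.000912 and 1.68e-05). Without slide 1, and so with 8 fewer arrays, the change was 1.02 at Low and 0.97 at Medium, and the calls were lost (limma adjusted p 0.0520 and 0.0582).

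Of the mitochondrial chaperones and proteases, Lonp1, the protease that clears oxidised matrix proteins, was called at all 3 concentrations. It read -1.21, -1.34, -1.21, -1.29 and -2.38 in Control and had a lowest, median and highest of -0.86, -0.37 and -0.16 at High. The Control arrays lay below every exposed array after slide adjustment, with the lowest reading on Control 5. Lonp1 rose by 0.79 ± 0.20, 1.00 ± 0.20 and 1.12 ± 0.20 (SE; limma adjusted p 0.0266, 0.00358 and 0.000628). Dnaja3, the J-domain partner of mitochondrial Hsp70, had changes of 0.37, 0.47 and 0.68 and was called at High (limma adjusted p = 0.00109). Hspa9, mitochondrial Hsp70 itself, changed by 0.50, 0.50 and 0.52 (limma adjusted p 0.00947, 0.00789 and 0.0029) and Hspd1, Hsp60, by 0.35 at High (limma adjusted p = 0.0422), both short of 1.5-fold. The call of Lonp1 was lost in 14 of 42 other settings at Low, 4 at Medium and 2 at High. At Low it was lost without any 1 of Control 2, Control 5, Low 1 or Low 4, at 0.77, 0.66, 0.67 and 0.64. Without slide 1 it was lost at Low (0.74) and Medium (1.00), with limma adjusted p of 0.230 and 0.0757, and with the scanner's own log ratios likewise (0.88 at both, limma adjusted p 0.0779 and 0.0641). After median centring in place of loess its calls at all 3 concentrations were lost, with changes of 0.64, 1.12 and 1.07, as were those of Dnaja3 at High (0.65) and of Sqstm1 at Low (0.89). Hspa9 and Hspd1 were picked after their values were seen. In the same list, Hspe1 changed by -0.27, -0.0044 and 0.19 and Trap1 by -0.21, -0.36 and -0.21. Neither had a limma adjusted p under 0.305. In all, limma's adjusted p was at most 0.05 at High for 4 of 9 mitochondrial genes, against 20.6% of all named genes. This list is 1 of several, and over all 68 detected genes listed it was so for 11. No test was made of these shares.

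Hspb2, a small heat shock protein best known from muscle, fell at every concentration. It read -0.46, -0.21, -0.31, 0.35 and 0.18 in Control and had a lowest, median and highest of -1.88, -1.34 and -0.81 at High, below every Control array. The change was -0.72 ± 0.12, -0.97 ± 0.12 and -1.28 ± 0.12 (SE), with limma adjusted p of 0.00102, 3.18e-05 and 4.29e-07. Without slide 1 its call at Low was lost (-0.64, limma adjusted p = 0.0826). High against Low was a further -0.56 ± 0.11 (limma adjusted p = 0.0325), though this was under the 1.5-fold threshold. Its Cy5 signal ran from 109.5 to 647, so part of its range is close to background. Col1a1 and Col3a1 were called lower as well, while Vim had changes above 0, and the part of these markers was not tested. Stub1, the ubiquitin ligase CHIP that tags Hsp70 clients, was called lower at Low alone (-0.85 ± 0.21, SE; limma adjusted p = 0.0251), with -0.44 at Medium and -0.47 at High. That call was lost in 18 of 42 other settings, among them leaving out any 1 of Control 2, 3, 4 or 5 or Low 1, 4 or 6 (-0.84 to -0.68).

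**Figure D4:**
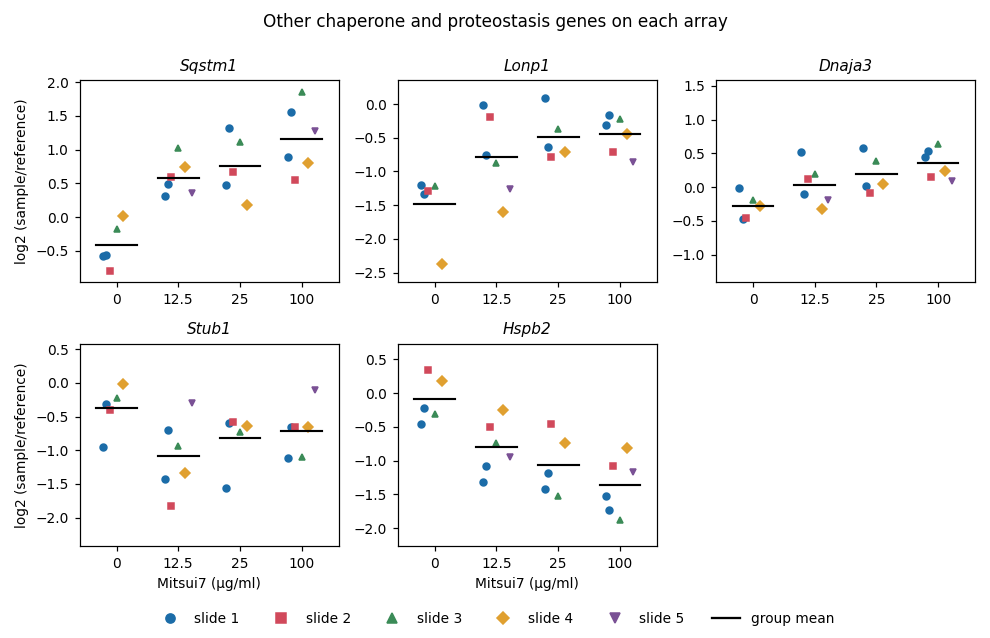
Log2 ratio of sample to reference (y axis) on each array for 5 genes of protein quality control that were called at 1 or more concentrations, by Mitsui7 concentration in µg/ml (x axis). Symbols and colours give the slide and horizontal lines the group means. Sqstm1 stands higher in the 3 exposed groups (0.18 to 1.85) than in Control (-0.79 to 0.01), and Hspb2 at 100 µg/ml (-1.88 to -0.81) lies below every Control array (-0.46 to 0.35).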

How the data were processed

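Each array was deposited as a scanner file of spot intensities, made by the authors with Agilent Feature Extraction (10.7.3.1 per the file headers; the methods name another version and scanner), on a design of 59305 spots for 55681 probes. Cy5 held the sample and Cy3 the reference throughout; dyes were never swapped, and any dye effect is therefore shared by the 4 groups. Deposited median intensity per spot was taken without background subtraction, as log2 of Cy5 over Cy3. Ratios were loess-normalised within each array, outlier spots set to missing and spots of 1 probe combined by the median. The scanner's own log10 ratios, also made by the authors, and the deposited log2 values of the series matrix served as alternatives. The latter are the authors' processed values, with scale and centring not stated. The 26413 probes with an accession found in RefSeq were given a symbol. Per probe, a linear model with group and slide over all 22 arrays was fitted, with variances shrunk by limma 3.58.1 in R 4.3.3 (prior degrees of freedom 5.51) and Benjamini-Hochberg adjustment over all probes. It stands in for the shrinkage F test with shuffled residuals that the methods describe, and was tested on simulated data. The methods describe 3 separate exposure experiments for the 5 or 6 arrays of a group, and nothing ties an array to one, so p-values measure the spread between these samples, which may in part be technical. The number of arrays limits the precision. Named genes are the 10 members, the other listed genes called against Control and, by probe, the brightest. Actb, Gapdh and Hprt, which the methods name as PCR reference genes, were fitted too. Their changes at Low, Medium and High were 0.62, -0.06 and 0.06 for Actb and -0.10, -0.42 and -0.31 for Gapdh. For Hprt they were 0.24, 0.13 and 0.39. None was called, with limma adjusted p of at least 0.143. 1 further listed gene is not reported here. Members and lists were chosen with earlier results of these data known.

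Replicate numbers in the labels were checked as pairs. All 31 pairs of arrays of different groups with the same number had deviations from the group means that correlated above 0.1 (0.17 to 0.86), 27 of 31 shared a slide, and 19 of 22 arrays were nearest to 1 of their own number. Since most of these pairs shared a slide, these values cannot tell a pairing by number from the slide. Removing slide means cannot decide it where a slide held at most 1 array of a group, since that forces correlations there towards negative values. Slide 1 held more arrays of every group. With slide means removed, its same-number pairs correlated from -0.04 (Low 1 and High 1, the only negative value) to 0.65 (Low 1 and Medium 1). No test was made of these values. The highest correlation of any pair of arrays was 0.98.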

Additional observations from a re-analysis of the deposited data

Results flagged for a closer look

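Of 56 groups of 4 to 6 arrays examined over the 9 members and 5 other called genes, 3 held 1 array far from the rest, and chance alone marks about 1 in 20 groups. Bag3 read -0.75 on Low 6, where the nearest of the other 4 Low arrays measured read -0.04. Lonp1 read -2.38 on Control 5 against -1.34 on the nearest Control array. Without Control 5, the change of Lonp1 at Low was 0.66 and its call was lost (limma adjusted p = 0.0867). Stub1 read -1.57 on Medium 1 against -0.73 on the nearest Medium array. Low 6 and Control 5 were among the arrays with the fewest detected probes, and the part of low signal was not tested.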

How the results depend on the processing

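The count of members called stayed at 0 in each of the 6 comparisons under all 42 other settings. Of 1134 values of a member's change under another setting, 1043 kept their direction, 91 reversed it and 0 became calls, and 7 (each Hspb8 at High) had a limma adjusted p of at most 0.05. Those that reversed were as follows. After median centring in place of loess, Hspa1a was -0.061 at High, Hsph1 was -0.14 at Low and 0.021 at Medium, Dnajb1 was 0.0065 at Medium, Hspb1 was -0.068 at Low, Hsp90aa1 was -0.081 at Low and Bag3 was 0.057 at Medium. With the scanner's own log ratios, Hspa1a was 0.0093 at Medium, Hspa8 was -0.15 at Medium, Hsph1 was -0.040 at Low and Hsf1 was -0.048 at Medium. With normexp background correction, Hspa1a was -0.0012 at High. With the series matrix values, Hspa8 was 0.011 at High, Bag3 was 0.0050 at Medium and Hsf1 was -0.26 at Medium. With outlier spots kept, Hspa8 was 0.0015 at High and Bag3 was 0.097 at Medium. With no slide term, Hsph1 was 0.019 at High. With the replicate block in place of slide, Hspa1a was -0.055 at High and Hspa8 was 0.018 at High. As a mean over the detected probes of a gene, Hspa8 was -0.046 at Medium and Hsph1 was -0.081 at Low. Without slide 1, Hspa1a was -0.056 at High, Hspa8 was 0.069 at High and Hsph1 was 0.046 at Medium and 0.045 at High. Without slide 2, Hspa8 was 0.017 at High and Hsph1 was 0.0022 at High. Without slide 3, Hspa1a was -0.045 at High, Hspa8 was 0.023 at High, Hsph1 was -0.071 at Low and Bag3 was 0.024 at Medium. Without slide 4, Hspa1a was 0.073 at Medium, Hspa8 was -0.090 at Medium, Hsph1 was -0.082 at Low, Hspb1 was -0.052 at Medium, Bag3 was 0.0011 at Low and Hsf1 was -0.14 at Low and -0.24 at Medium. On slide 1 alone, Hspa8 was -0.12 at Medium, Hsph1 was -0.27 at Low, Hspb1 was -0.086 at Medium, Hsp90aa1 was -0.040 at Low and -0.077 at Medium and -0.076 at High, Bag3 was 0.12 at Low and 0.025 at Medium and Hsf1 was -0.42 at Low and -0.36 at Medium. With Low 1 and Medium 2 both left out, Hsf1 was -0.0018 at Medium. Leaving out 1 array at a time, Hspa1a ran from -0.16 to 0.17 at High and from -0.26 to 0.072 at Medium, Hspa8 ran from -0.068 to 0.048 at High and from -0.062 to 0.056 at Medium, Hsph1 ran from -0.073 to 0.12 at Low and from -0.20 to 0.030 at Medium and from -0.10 to 0.065 at High, Bag3 ran from -0.093 to 0.020 at Medium and from -0.15 to 0.043 at Low, Hspb1 ran from -0.028 to 0.10 at Medium and Hsf1 ran from -0.048 to 0.40 at Low and from -0.24 to 0.15 at Medium and from -0.011 to 0.36 at High. Under the replicate block, which pairs arrays by number, members called stayed at 0 and the other genes called numbered 4, 4 and 6 at Low, Medium and High, so that no count moved by over 1.5 times. Quantile scaling of mean intensities between arrays after loess was not run, since it leaves log ratios as they are. Scaling of the log ratios or of single channels between arrays, which can change them, was not run either.

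Counts of the other 73 genes moved more. At Low, 4 calls became 2 after median centring, with the scanner's log ratios, with the slide as a random block, without slide 2, without slide 3 and with Low 1 and Medium 2 both left out, 1 with no slide term, at 2-fold and without slide 1, and 0 on slide 1 alone. Leaving out 1 array at a time gave 2 to 5 at Low, with 2 without Control 2, Control 5, Low 1 or Low 4. At Medium, 3 calls became 5 with no fold threshold, 1 without slide 1 and 0 on slide 1 alone, which leaves 2 arrays a group. Where a slide was left out, detection was still judged over all arrays. At High, 4 became 2 after median centring, 11 with no fold threshold and 1 on slide 1 alone. Of 630 values of the 5 named other genes, 576 kept their side of the threshold, 53 lost it, 1 gained it and 0 reversed. The call of Lonp1 at Low was lost without Control 2 (0.77), Control 5 (0.66), Low 1 (0.67) or Low 4 (0.64), and that of Stub1 at Low without any 1 of Control 2, 3, 4 or 5 or Low 1, 4 or 6, at -0.84 to -0.68. Beside detection of Hspa1a, signal over background limits Hspb2. The cause was not tested for any of these shifts.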
